A study of Mus musculus with 7 samples.

Results

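Schwann cells are the glia of peripheral nerves, and the 8 genes followed here are those by which they and their myelin are commonly recognised: Mbp, Pmp22, Prx, Mag, Sox10, S100b, Egfl8 and Ngfr. They were picked by symbol, with no threshold on their values, from 42689 genes in the deposited tables. Earlier results of these data were known when they were picked. All 8 were found and all 8 passed the filter on low counts, which left 16028 features (called genes from here on). RNA was sequenced from hindlimb tendon of mice of C57BL/6 background in a study of tissue formation after musculoskeletal injury and the kinase TAK1. The tenotomy group (n = 2 libraries) was the site of the cut Achilles tendon, taken 3 weeks after tenotomy combined with a partial-thickness burn of the back (an aluminium block at 60 °C for 18 s over 30% of the body surface). The contralateral group (n = 3) was the uncut tendon of the other leg of mice with the same burn and tenotomy, 3 weeks on as well. Mice that had neither burn nor tenotomy, described as wild type, gave the uninjured group (n = 2). No genetic change of TAK1 is named for any of these libraries, and neither age nor sex is given. Nothing in the labels says that libraries of a group came from separate animals, so p-values measure only the spread between these libraries.

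In a peripheral nerve, a myelinating Schwann cell wraps a single axon in compacted membrane. Mbp (myelin basic protein) and Pmp22 (peripheral myelin protein of 22 kDa) belong to the compact myelin, Prx (periaxin) is a scaffold on its outer face and Mag (myelin-associated glycoprotein) an adhesion molecule on the inner, axonal face. Sox10 is the transcription factor that Schwann cells need at every stage, and S100b is a calcium-binding protein they hold in quantity. Ngfr, the p75 neurotrophin receptor, is high in immature, non-myelinating and injured Schwann cells and low in those that make myelin, and Egfl8 encodes a protein with EGF-like domains found in Schwann cells. When an axon is cut, Schwann cells beyond the cut are known to switch off myelin genes and switch on genes of an immature state. Several of the 8 genes are also used by other cells: Pmp22 by fibroblasts, S100b by fat and cartilage cells, Ngfr by stromal cells and Mbp, from an upstream promoter, by blood cells.

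The sequences just before 4 start sites of these genes are shown because transcripts from them lay lower (Prx and the Pmp22 upstream start), higher (Ngfr) or near the same level (the Pmp22 second start) at the tenotomy site, as described further on. They are RefSeq windows (GRCm38.p6) that end at the last base before transcription, 5′ to 3′ on the gene's strand, and capitals mark CpG dinucleotides. The pair from Pmp22 belongs to its upstream start (chr11:63128732-63128981, plus strand) and its second start (chr11:63131207-63131456, plus strand), which RefSeq places slightly before the annotation used for the counts. The others belong to Prx (chr7:27499074-27499323, plus strand) and Ngfr (chr11:95587736-95587948, minus strand).
Pmp22 upstream start: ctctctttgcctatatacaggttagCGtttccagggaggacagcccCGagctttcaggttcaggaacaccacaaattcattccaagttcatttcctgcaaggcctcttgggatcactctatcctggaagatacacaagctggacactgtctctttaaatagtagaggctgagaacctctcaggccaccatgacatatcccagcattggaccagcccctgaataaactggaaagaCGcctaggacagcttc
Pmp22 second start: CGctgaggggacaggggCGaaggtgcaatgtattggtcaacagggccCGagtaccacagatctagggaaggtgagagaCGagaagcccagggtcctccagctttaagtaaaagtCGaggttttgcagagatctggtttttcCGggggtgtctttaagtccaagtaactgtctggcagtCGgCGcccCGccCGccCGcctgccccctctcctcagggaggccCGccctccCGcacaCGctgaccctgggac
Prx: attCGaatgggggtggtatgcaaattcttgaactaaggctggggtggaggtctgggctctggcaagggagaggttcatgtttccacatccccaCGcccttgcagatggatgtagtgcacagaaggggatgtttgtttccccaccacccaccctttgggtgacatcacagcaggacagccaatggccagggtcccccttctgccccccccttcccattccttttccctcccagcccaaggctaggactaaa
Ngfr: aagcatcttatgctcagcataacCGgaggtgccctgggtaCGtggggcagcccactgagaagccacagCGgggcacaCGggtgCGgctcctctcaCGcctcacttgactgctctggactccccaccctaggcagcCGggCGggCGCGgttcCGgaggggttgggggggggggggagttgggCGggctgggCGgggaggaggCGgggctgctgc
The Pmp22 upstream window held 3 CpG and the Prx window 2, while the Pmp22 second window held 14. The Ngfr window printed, 213 bases after leaving out transcribed bases, also held 14. Over all 32851 promoter windows of 250 bases the median was 6, and 37.8% held 3 or fewer. Few CpG did not go with one direction among the 8 genes: the windows of S100b (2 CpG), Mag (2 to 3) and Egfl8 (5), genes that lay higher at the tenotomy site, were also below the median. The core letters bound by Sox proteins, ACAAAG or ACAATG on either strand, occurred in none of the 4 windows printed and in 25.2% of all windows. ACAAAG occurred in windows of Mag and Egfl8. Of the 8 genes, 6 had an entry in the table.

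Total estimated counts per library ranged from 25927171 to 36725106, of which between 76.41% and 81.4% fell on the 5 largest features, leaving 4934057 to 8375626 counts for the rest. The uninjured libraries stood far apart. The 10 skeletal muscle markers summed to 1003 CPM (counts scaled by library size with TMM) in uninjured replicate 1 and 7417 CPM in replicate 2, against 808 to 813 CPM at the tenotomy site and 7515 to 9937 CPM in contralateral tendon. The sums of 10 macrophage markers (133 and 36.4 CPM, against 135 to 140 at the tenotomy site and 28.9 to 35.6 in contralateral tendon) and of 10 cartilage markers (222 and 52.9 CPM, against 431 in both tenotomy libraries and 32.7 to 58.4 in contralateral tendon) split the uninjured pair the same way. Uninjured replicate 1 was close to the tenotomy libraries in muscle and macrophage markers and between the groups in cartilage markers, and replicate 2 was close to the contralateral libraries in all 3 lists. Whether the label of replicate 1 is right cannot be told from these values, so the comparisons of the 8 genes with the uninjured group are also given without each of its libraries. Tendon fibroblast markers were present in every library. Their sums did not split the pair: 4658 and 4124 CPM in uninjured, 5058 and 5074 in tenotomy and 986 to 1401 in contralateral libraries. Col1a1 (2357 and 2214 CPM in uninjured replicates 1 and 2) and Col1a2 (1711 and 1489) made up most of the uninjured sums. Single markers did differ: Lum was at 99.3 and 8.60 CPM, Tnmd at 25.3 and 11.8 and Thbs4 at 163 and 70.9. Fmod, Kera and Mkx were lower in replicate 1. Between tenotomy and contralateral libraries, 9 macrophage, 8 cartilage and 6 of 10 tendon fibroblast markers rose, 10 muscle and 5 adipocyte markers fell, and of 10 endothelial and mural markers 2 rose and 3 fell. In that comparison 13.6% of all genes rose and 15.4% fell, 29.0% in either direction. In whole tissue, fewer Schwann cells and less RNA of a gene per cell cannot be told apart.

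Per transcript length, in the deposited TPM summed by gene, Pmp22 and Mbp were the highest of the 8 in every library, at 1.88 to 6.69 TPM for Pmp22 and 1.21 to 4.20 for Mbp. Pmp22 lay above Mbp within each library, but their ranges over libraries overlapped. Prx followed at 0.219 to 0.693 TPM, overlapping with Mag at 0.102 to 0.400. Most of the Mag value in each library came from a transcript of 368 bases not annotated as coding (0.0642 to 0.250 TPM). The longest coding transcripts of Mag (2419 and 2434 bases) were each at 0.0440 TPM or less. Sox10 (0.0601 to 0.124 TPM), S100b (0.0754 to 0.197), Egfl8 (0.0282 to 0.206) and Ngfr (0.0124 to 0.154) overlapped each other. Ngfr was the lowest of the 8 in all 3 contralateral libraries, tenotomy replicate 1 and uninjured replicate 2, the next to lowest in tenotomy replicate 2 and the fifth highest in uninjured replicate 1.

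**Figure D1:**
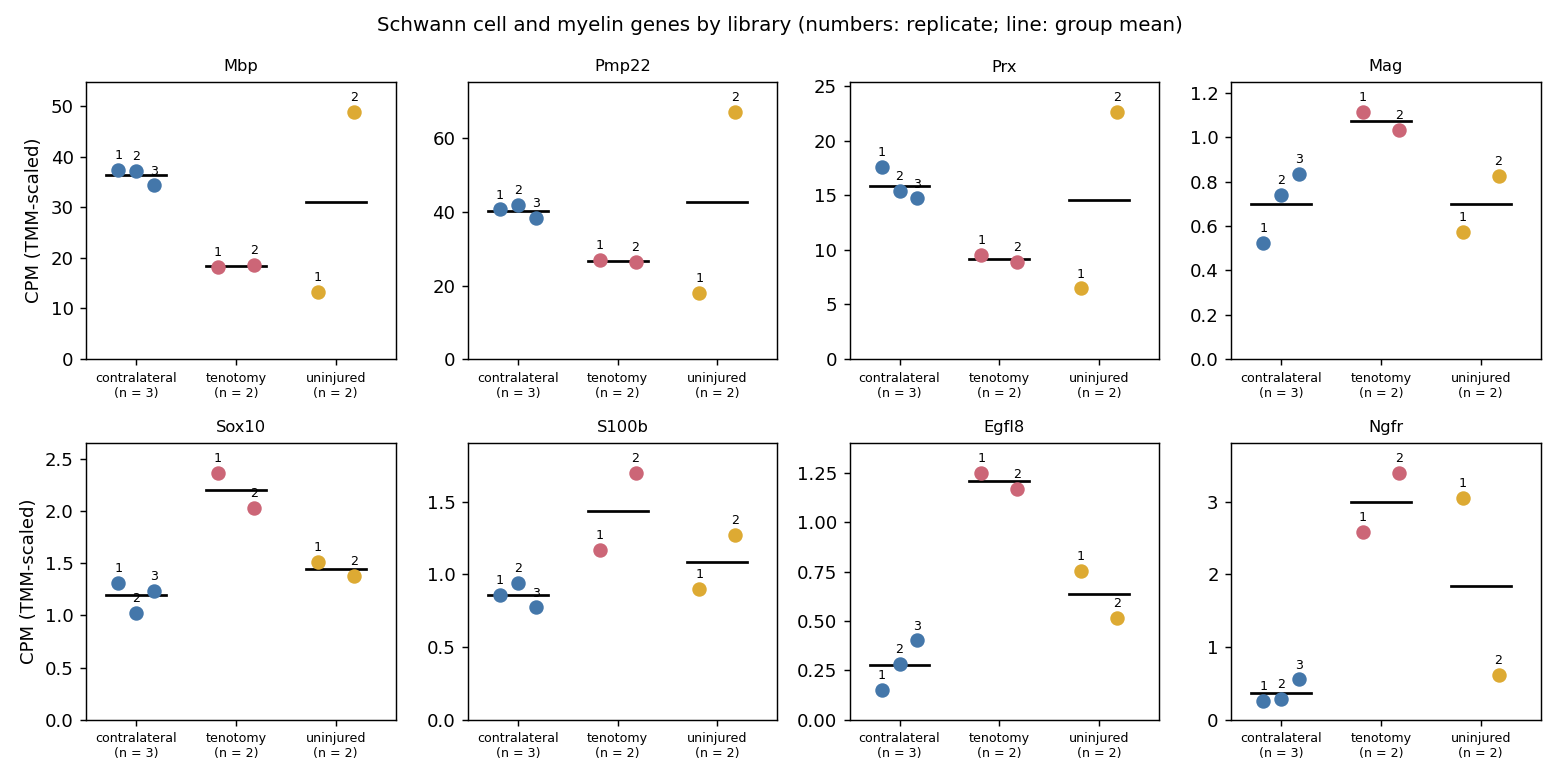
Level of each of the 8 genes (y axis, TMM-scaled CPM, linear from 0) in every library (points, numbered by replicate) of the 3 groups (x axis), with the group mean as a line. Mbp, Pmp22 and Prx lie lower in both tenotomy libraries than in all contralateral libraries, Ngfr, Egfl8 and Sox10 lie higher, and the uninjured libraries lie far apart for Mbp, Pmp22, Prx and Ngfr.

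Nerve glia transcripts of the cut tendon were first set against those of the uncut side. The 8 genes divided. The receptor Ngfr, Egfl8 and the transcription factor Sox10 rose at the tenotomy site, whereas the myelin genes Mbp, Pmp22 and Prx lay lower there without passing the threshold in the fit of all 7 libraries. The edgeR quasi-likelihood test called 3 of 8 higher and 0 of 8 lower at an adjusted p under 0.05, against 13.6% of all genes higher and 15.4% lower. At an unadjusted p under 0.05 the counts were 4 higher and 0 lower, against 21.0% and 22.3% of all genes (43.3% in either direction). DESeq2 and limma-voom each called 3 higher and 0 lower. Of 16028 genes, DESeq2 called 1682 higher and 2061 lower, and limma-voom called 2125 higher and 2343 lower. In CPM the tenotomy and contralateral libraries did not overlap for any of the 8 genes, 5 higher and 3 lower, against 31.9% of all genes higher and 31.8% lower. The median log2 fold change of the 8 was 0.67, beside -0.001 over all genes, and ranged from -0.98 to 2.99.

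Ngfr (ENSMUSG00000000120.6; chromosome 11, 95568818 to 95587735, minus strand, GRCm38) was at 0.262, 0.285 and 0.557 CPM in the contralateral libraries and at 2.58 and 3.4 CPM at the tenotomy site. These values rested on 7, 10 and 18 counts against 95 and 102 counts. Both tenotomy libraries lay far above all contralateral ones, with means of 2.99 CPM ± 0.577 (SD, n = 2) and 0.368 ± 0.164 (SD, n = 3), and the log2 fold change was 2.99 (SE 0.62, edgeR adjusted p = 0.0168). Egfl8 (ENSMUSG00000015467.14; chromosome 17, 34613349 to 34615971, minus strand) was at 0.150, 0.285 and 0.402 CPM in contralateral tendon, from 4 to 13 counts, and at 1.25 and 1.17 CPM at the tenotomy site, from 46 and 35 counts. Its log2 fold change was 2.07 (SE 0.36, edgeR adjusted p = 0.0167), and the groups did not overlap. Agpat1, which shares 101 bases with Egfl8 on the other strand, went from 122 to 173 counts in contralateral libraries to 95 and 74 counts, the opposite direction.

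Sox10 (ENSMUSG00000033006.10; chromosome 15, 79154908 to 79165240, minus strand) was at 1.31, 1.02 and 1.24 CPM in contralateral tendon and 2.37 and 2.03 CPM at the tenotomy site. The rise was smaller than that of Ngfr, by log2 fold change (0.89, SE 0.19), and passed (edgeR adjusted p = 0.0168). Sox10 is also a gene of pigment cells. Of 8 melanocyte markers, 7 had at most 10 counts in every library, among them Tyr, Tyrp1 and Pmel. The sum of the list was 3.81 to 4.497 CPM in contralateral and 3.97 to 4.35 CPM in tenotomy libraries. Most of it was Mitf, at 3.36 to 4.01 CPM in contralateral and 3.62 and 3.43 CPM in tenotomy libraries. The part of pigment cells in the Sox10 value was not tested.

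S100b (ENSMUSG00000033208.7; chromosome 10, 76253853 to 76261159, plus strand) was at 0.862, 0.939 and 0.773 CPM in contralateral tendon and 1.17 and 1.70 CPM at the tenotomy site. Mag (ENSMUSG00000036634.15; chromosome 7, 30899176 to 30914873, minus strand) was at 0.525, 0.740 and 0.835 CPM against 1.115 and 1.03 CPM, from 14 to 41 counts a library. Neither passed the threshold, with log2 fold changes of 0.73 for S100b (SE 0.26, edgeR adjusted p = 0.0680) and 0.61 for Mag (SE 0.27, edgeR adjusted p = 0.128). S100b did so when only these groups were fitted (edgeR adjusted p = 0.0286). Both S100b and Mag did when libraries were scaled to their total without the 5 largest features (edgeR adjusted p = 0.0142 and 0.0167). That scaling moved the median log2 fold change of all genes to 0.44 and called 4445 of 16028 genes higher and 1475 lower. S100b shares 1731 bases of its locus with Dip2a on the other strand, which went from 87 to 105 counts in contralateral libraries to 191 and 145 counts at the tenotomy site. Whether the authors' counting used strand is not given in the sources used here, so reads of the pair may not be separable. Sums of cartilage markers were higher and sums of 8 adipocyte markers lower at the tenotomy site (87.98 to 88.29 CPM against 181.1 to 240.7 CPM), and their part in the S100b value was not tested.

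Mbp (ENSMUSG00000041607.17; chromosome 18, 82475146 to 82585637, plus strand) was at 37.4, 37.1 and 34.3 CPM in contralateral tendon and 18.2 and 18.5 CPM at the tenotomy site. Prx (ENSMUSG00000053198.13; chromosome 7, 27499324 to 27520214, plus strand) was at 17.6, 15.4 and 14.7 CPM against 9.52 and 8.90 CPM. Pmp22 (ENSMUSG00000018217.12; chromosome 11, 63128982 to 63159547, plus strand) was at 40.7, 42.0 and 38.4 CPM against 27.0 and 26.5 CPM. For these 3 genes every tenotomy library lay below every contralateral library, and libraries of a group lay close together. The log2 fold changes were -0.98 for Mbp (SE 0.47, edgeR adjusted p = 0.147), -0.79 for Prx (SE 0.45, edgeR adjusted p = 0.217) and -0.59 for Pmp22 (SE 0.46, edgeR adjusted p = 0.369). The spread in that fit includes the uninjured libraries, which lay 3.67-fold apart for Mbp, 3.50-fold for Prx and 3.72-fold for Pmp22. When only tenotomy and contralateral libraries were fitted, all 3 passed as lower, with edgeR adjusted p-values of 4.67e-06 for Mbp, 0.000112 for Prx and 0.000235 for Pmp22. That fit called 4 of the 8 genes higher and 3 lower, against 22.1% and 24.1% of all genes.

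Several limits apply to this comparison. In the fit of all libraries, no gene of any kind passed when any 1 contralateral or tenotomy library was left out, and the count of the 8 genes called higher was then 0. At an unadjusted p under 0.05, between 2126 and 2861 of all genes were still higher and between 2412 and 3287 lower. Without uninjured replicate 1, 4 of the 8 were called higher and 3 lower (21.0% and 22.0% of all genes), and without replicate 2 likewise 4 and 3 (21.2% and 22.3%). Scaling to the total without the 5 largest features moved the median log2 fold change of all genes to 0.44 from -0.001. On that scale the change of Pmp22 was -0.16, of Prx -0.36 and of Mbp -0.55, so all 3 still lay below the median gene. The summed muscle and adipocyte markers, like Mbp, Pmp22 and Prx, were low in both tenotomy libraries and in uninjured replicate 1 and high in the other 4 libraries, and their part in the result was not tested.

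**Figure D2:**
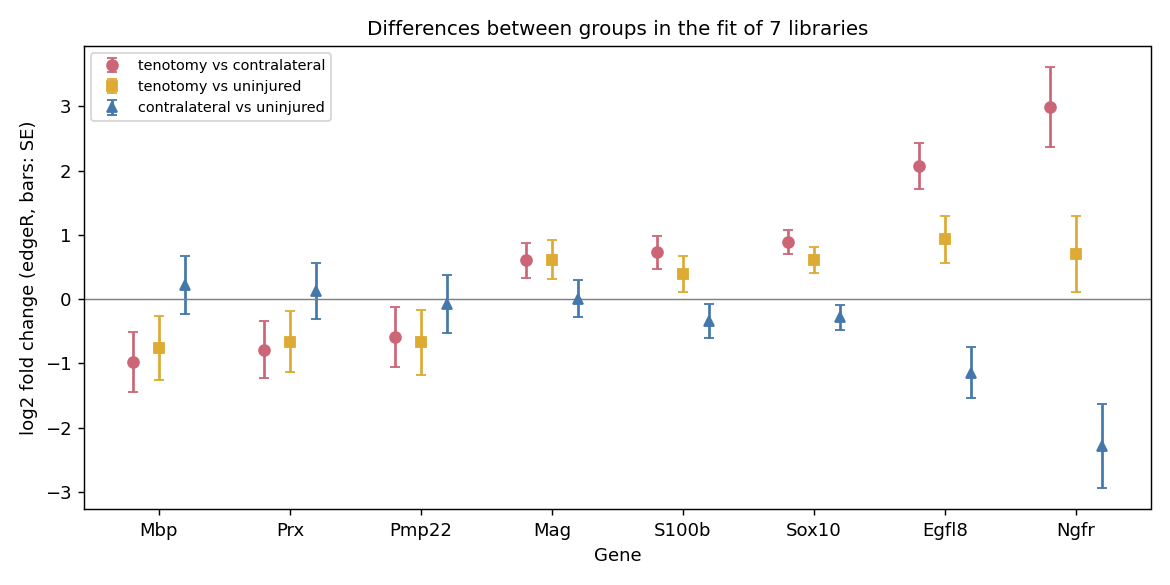
Log2 fold change (y axis) of each of the 8 genes (x axis) in the 3 comparisons (points), from the edgeR fit of 7 libraries, with bars of 1 standard error. Tenotomy against contralateral runs from -0.98 for Mbp to 2.99 for Ngfr. The bars of Ngfr are the widest in all 3 comparisons, followed by those of Mbp, Prx and Pmp22.

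Ratios of counts within a library do not depend on scaling. There were 28.6, 36.2 and 27.8 counts of Mbp for each count of Sox10 in the contralateral libraries, and 7.70 and 9.12 at the tenotomy site. The ratio of Prx to Sox10 was 13.4, 15.0 and 11.9 against 4.02 and 4.38, and that of Pmp22 to Sox10 was 31, 41 and 31 against 11 and 13. Transcripts of Mbp, Prx and Pmp22 were thus fewer relative to Sox10 in both tenotomy libraries than in any contralateral one. Counts of Ngfr for each count of Sox10 ran the other way, at 0.199, 0.276 and 0.439 against 1.09 and 1.68. Mag relative to Sox10 did not separate the groups. It had 14, 26 and 27 counts beside 35, 36 and 40 of Sox10 in contralateral libraries. At the tenotomy site it had 41 and 31 beside 87 and 61. Uninjured replicate 1 had ratios near those of the tenotomy site (8.81 for Mbp, 4.29 for Prx, 12.0 for Pmp22 and 2.03 for Ngfr). Uninjured replicate 2 had 35.5, 16.5, 48.8 and 0.438.

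Mbp and Pmp22 each have more than 1 start site, and the deposited estimates for single transcripts were summed by annotated start, as a description with no test. Mbp has 12 annotated transcripts in the files from the downstream starts, which make the classic myelin basic proteins, and 4 from an upstream start (82475146 to 82475370), which make the longer golli proteins also found in blood cells. The downstream group was at 34.6, 34.5 and 31.9 CPM in contralateral libraries and 15.5 and 15.9 CPM at the tenotomy site, a log2 ratio of means of -1.10. The upstream group was at 2.86, 2.63 and 2.43 CPM against 2.73 and 2.70 CPM, a log2 ratio of 0.04, and the groups overlapped. The lower Mbp level at the tenotomy site was therefore carried by the downstream, myelin-type transcripts. Upstream transcripts held 7.07% to 7.65% of Mbp counts in contralateral libraries, 15.0% and 14.5% at the tenotomy site, 17.3% in uninjured replicate 1 and 6.17% in replicate 2.

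Pmp22 has an upstream start (63128982), known as the one used with myelination, and a second start (63131512) known for use in other tissues, whose preceding bases are printed above. The transcript from the upstream start was at 23.8 to 26.9 CPM in the 3 contralateral libraries and 10.9 and 10.7 CPM at the tenotomy site, a log2 ratio of means of -1.24. That from the second start was at 15.3, 14.0 and 11.4 CPM against 15.3 and 15.1 CPM, a log2 ratio of 0.17. The upstream transcript held 58.4%, 64.1% and 67.8% of the gene's counts in contralateral libraries and 40.4% and 40.3% at the tenotomy site. It held 43.4% in uninjured replicate 1 and 65.9% in replicate 2. The gene-level difference of Pmp22 was thus smaller than that of its upstream start alone. The transcripts differ only at their 5′ ends, with 168 and 144 stretches of 31 bases found in only the upstream or only the second transcript, so each split rests on few reads. For Prx, the upstream start, whose preceding bases are printed above, was at 17.6, 14.0 and 14.0 CPM in contralateral libraries and 8.19 and 7.99 CPM at the tenotomy site, a log2 ratio of -0.91. Its downstream start was at 0.00, 1.41 and 0.720 CPM against 1.33 and 0.914 CPM, and the groups overlapped. The upstream start held at least 90.8% of Prx counts in each contralateral library, 86.1% and 89.7% at the tenotomy site, 75.1% in uninjured replicate 1 and 90.4% in replicate 2.

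**Figure D3:**
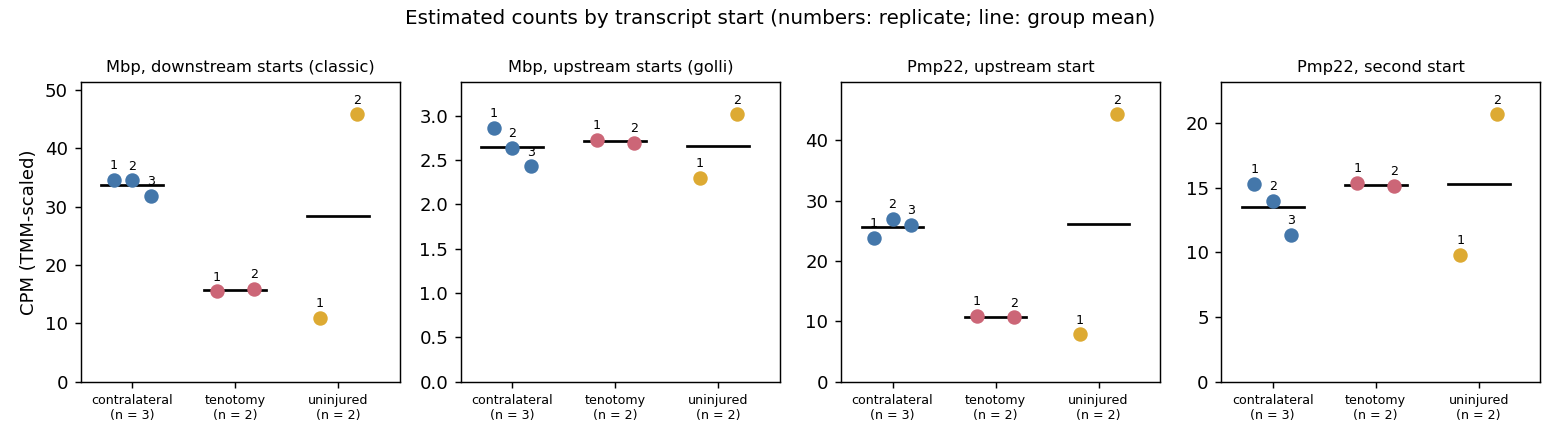
Estimated counts of Mbp and Pmp22 by transcript start (y axis, TMM-scaled CPM, linear from 0) in every library (points, numbered by replicate) of the 3 groups (x axis), with group means as lines. The downstream starts of Mbp and the upstream start of Pmp22 lie lower at the tenotomy site than in contralateral tendon, while the upstream starts of Mbp overlap and the second start of Pmp22 spans 11.4 to 15.3 CPM in contralateral and 15.1 to 15.3 CPM in tenotomy libraries.

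Other Schwann cell genes were read from 3 further lists, which were chosen with earlier results of these data known. Of 18 genes of compact myelin and Schwann cell junctions, all tested, 4 rose and 0 fell at the tenotomy site, against 13.6% and 15.4% of all genes (median log2 fold change -0.08, range -1.52 to 1.48). Among those that rose were Gjc3, a glial connexin (log2 fold change 1.44), Gldn, which gathers sodium channels at nodes (1.31), and Nfasc, an adhesion molecule of nodes and paranodes (0.98), each with an edgeR adjusted p of 0.0167. Nfasc was named after its values were seen. With only these groups fitted, 7 of the 18 were higher and 4 lower, against 22.1% and 24.1% of all genes. Among the lower, named here after their values were seen, were Drp2, the periaxin partner (edgeR adjusted p = 5.47e-07), Ugt8a, which makes the myelin lipid galactosylceramide (0.00103), and Mal (0.00659). Drp2 had the lowest fold change of the list, from 13.9, 14.3 and 12.4 CPM to 4.43 and 5.00 CPM. The genes of this mixed list thus differed in direction, although no fall passed in the edgeR fit of all 7 libraries. The rises named were of a connexin and of genes of nodes.

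Of 15 regulators and receptors, 14 were tested and 9 rose and 1 fell, against 13.6% and 15.4% of all genes, with a median log2 fold change of 0.87. Pou3f1, a transcription factor of Schwann cells about to myelinate, had 3, 6 and 1 counts in contralateral libraries and 29 and 25 counts at the tenotomy site (edgeR adjusted p = 0.0209). Sox2, a factor of immature Schwann cells, had 0, 3 and 2 counts against 16 and 15 (edgeR adjusted p = 0.0227). Erbb3, the neuregulin receptor that Schwann cells depend on, went from 2.59, 2.85 and 2.23 CPM to 4.81 and 4.53 CPM, or 0.87 on the log2 scale (edgeR adjusted p = 0.0302). Egr2, the transcription factor that drives myelin genes, was at 1.01, 1.05 and 0.897 CPM against 1.52 and 1.07 CPM and did not pass (log2 fold change 0.40, edgeR adjusted p = 0.229). The gene that fell was Qk, an RNA-binding protein of glia that muscle also holds, at -1.12 on the log2 scale (edgeR adjusted p = 0.0269).

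Of 14 genes of non-myelinating and injury-state Schwann cells, 10 were tested and 6 rose and 0 fell, against 13.6% and 15.4% of all genes (median log2 fold change 0.93). Gap43, a growth-associated protein of axons and of Schwann cells without myelin, had 2, 8 and 2 counts in contralateral libraries and 32 counts in each tenotomy library (edgeR adjusted p = 0.0240). Gfap, an intermediate filament of non-myelinating Schwann cells, had 0, 0 and 1 counts against 11 and 9 (edgeR adjusted p = 0.0168). Jun, a factor of the injury response of Schwann cells that most cells express, named after its values were seen, was at 8.96 to 9.15 CPM against 8.57 and 9.30 CPM (log2 fold change -0.02, edgeR adjusted p = 0.916). Over the 3 lists, 19 of 42 tested genes rose and 1 fell, against 13.6% and 15.4% of all genes, with a median log2 fold change of 0.56 beside -0.001 over all genes. The filter kept genes with enough counts in as few libraries as the smallest group (n = 2). Genes such as Sox2 and Gfap were therefore tested only because they were high in the tenotomy libraries, and could hardly fall there. The counts of rises and the medians of these lists are thus partly set by the filter. Many of these genes are expressed outside nerve, and the part of other cells was not tested.

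**Figure D4:**
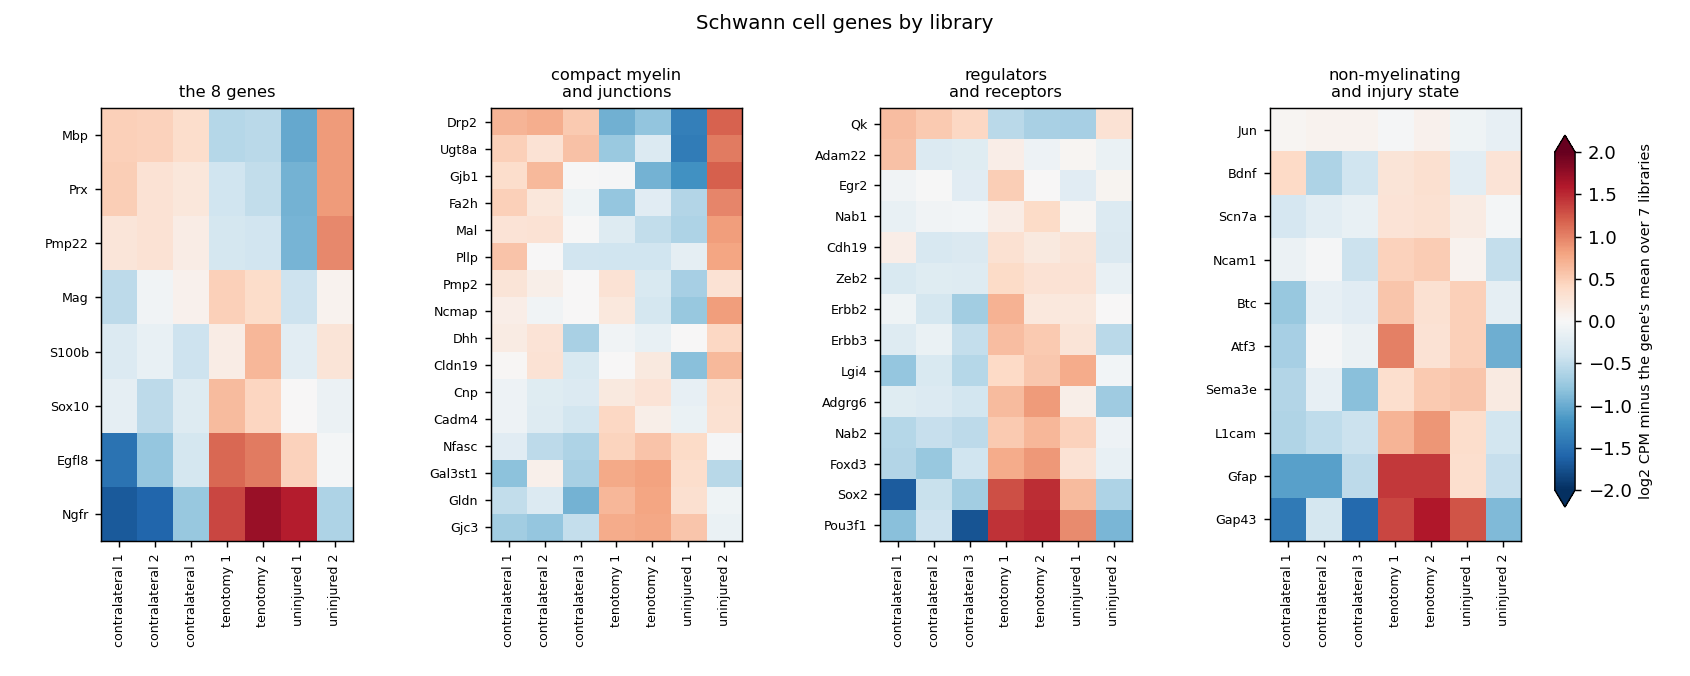
Log2 CPM of tested genes, each minus its mean over 7 libraries (colour, from -2 in blue to 2 in red) for the 8 genes and 3 further lists (panels), with libraries as columns and genes ordered by the tenotomy minus contralateral difference. Uninjured replicate 1 shows the lowest values of Mbp, Prx, Pmp22 and Drp2, and uninjured replicate 2 the highest.

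Other cells of nerve and other myelin-making cells were checked with marker lists, also chosen with earlier results of these data known. Of 8 perineurial genes, which mark the sheath around nerve bundles, 7 were tested, 3 rose and 1 fell at the tenotomy site, against 13.6% and 15.4% of all genes. Moxd1 (log2 fold change 3.11) and the tight junction gene Cldn1 (1.70) rose most, Osr2, named after its values were seen, was the other that rose (1.65), and Sfrp5 fell by 1.37 on the log2 scale. Of 12 neuron and axon genes, 7 had at most 10 counts in every library, among them the neurofilament genes Nefl, Nefm and Nefh. Of the 5 tested, Gap43 rose and Uchl1 fell (log2 fold change -0.96, edgeR adjusted p = 0.0365). Oligodendrocytes, which make the myelin of brain and spinal cord and also express Mbp and Mag, were read from 8 markers. Opalin and Klk6 had 0 counts in every library and Mog at most 1, whereas Aspa had 56 to 100 counts, Ermn at most 20 and Mobp at most 12. The sum of the list was 2.74 to 3.39 CPM in contralateral libraries, 3.62 and 3.13 CPM at the tenotomy site and 3.02 and 2.44 CPM in uninjured tendon. The 3 markers tested had log2 fold changes of 0.06 to 0.75 and none passed, and the part of these cells in the Mbp and Mag values was not tested.

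The cut tendon was next set against that of mice with no injury. For Mbp, Pmp22 and Prx the outcome depended on which uninjured library was used. Mbp was at 13.3 CPM in uninjured replicate 1 and 48.8 in replicate 2, Pmp22 at 18.1 and 67.2 and Prx at 6.47 and 22.6. For all 3 genes these were the lowest and the highest values of the 7 libraries, so both tenotomy libraries lay between them. Sox10 (1.51 and 1.38 CPM), Egfl8 (0.755 and 0.516) and Mag (0.575 and 0.826) were lower in both uninjured libraries than in both tenotomy libraries. S100b (0.898 and 1.27 CPM) and Ngfr (3.05 and 0.619) overlapped with the tenotomy site. The edgeR fit of all libraries called 0 of the 8 genes and 0.0% of all genes. At an unadjusted p under 0.05 it had 2 of the 8, Sox10 (log2 fold change 0.61) and Egfl8 (0.93), both higher, against 3.27% of all genes higher and 7.59% lower. Limma-voom also called 0 of the 8. DESeq2 called none of Mbp, Pmp22 and Prx and gave no adjusted p for Ngfr, Egfl8, Sox10, S100b and Mag, so these could not be called. The 3 without overlap, all higher, compare with 20.1% of all genes higher and 20.4% lower. Of the 42 genes of the wider lists the fit called 0, and at an unadjusted p under 0.05 it had 7 higher and 0 lower. Limma-voom called 0 of the 42. DESeq2 also called 0, but those with counts as low as Sox10 or Ngfr may likewise have had no adjusted p.

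Leaving out 1 uninjured library changed these values. Without replicate 1, Mbp (log2 fold change -1.40), Pmp22 (-1.32) and Prx (-1.29) passed as lower at the tenotomy site and Ngfr (2.26) as higher (edgeR adjusted p = 7.87e-06, 1.22e-05, 3.61e-05 and 0.000868). That fit called 11.4% of all genes higher and 13.7% lower. Without replicate 2, Mbp, Pmp22 and Prx had log2 fold changes of 0.47, 0.57 and 0.51 and Ngfr of -0.04, and 0 of the 8 genes passed (0.0593% of all genes higher and 0.0237% lower). In both fits the lone uninjured library was assumed to vary like the other groups.

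Uncut tendon of injured mice was also set against that of mice with no injury. The lowest values of Ngfr, Egfl8 and Sox10 were all in contralateral libraries, whose highest values (0.557, 0.402 and 1.31 CPM) lay just below the lower uninjured library (0.619, 0.516 and 1.38 CPM). The edgeR fit called 0 of the 8 genes and 0.0% of all genes, and limma-voom called 0 of the 8. DESeq2 called none of Mbp, Pmp22 and Prx and gave no adjusted p for Ngfr, Egfl8, Sox10, S100b and Mag, so these could not be called. At an unadjusted p under 0.05 the edgeR fit had 2, Ngfr (log2 fold change -2.29) and Egfl8 (-1.14), both lower in contralateral tendon. Of all genes, 10.5% were lower and 8.72% higher at that level. The 3 genes without overlap, all lower, compare with 16.6% of all genes lower. Of the 42 genes of the wider lists the fit called 0, and at an unadjusted p under 0.05 it had 0 higher and 9 lower. Limma-voom again called 0 of the 42. DESeq2 also called 0, with the same limit for those with low counts. Mbp (log2 fold change 0.22, SE 0.45), Prx (0.13, SE 0.43) and Pmp22 (-0.08, SE 0.46) lay between the uninjured libraries. Without uninjured replicate 2, these 3 passed as higher in contralateral tendon (log2 fold changes 1.45, 1.30 and 1.16) and Ngfr (-3.02) and Egfl8 (-1.39) as lower, against 16.9% of all genes higher and 15.0% lower. Without replicate 1, Pmp22 alone passed, as lower (log2 fold change -0.74, edgeR adjusted p = 0.0168), against 0.306% of all genes higher and 0.311% lower.

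The numbers in the sample titles fall in 3 series, which no label calls a batch. Within the first, tenotomy replicate 1 differed from the mean of the contralateral libraries by -0.99 for Mbp, -0.58 for Pmp22, -0.74 for Prx, 0.99 for Sox10, 0.45 for S100b, 0.67 for Mag, 2.17 for Egfl8 and 2.81 for Ngfr in log2 CPM ratio, the same directions as in the fit. Within the next, tenotomy replicate 2 exceeded uninjured replicate 1 in all 8 genes, by 0.48 for Mbp, 0.55 for Pmp22, 0.46 for Prx and 0.15 for Ngfr. These are single libraries with no test, and the last series held only uninjured replicate 2.

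By profile over the 7 libraries, the genes most like the mean of Mbp, Mag and Prx were Kif1a, Sgip1, Id1, Secisbp2l and Ahcyl2, among 7172 genes with a mean log2 CPM of at least 1. The measure was the root mean square difference of log2 CPM after subtracting each gene's mean, which was 0.066 for Kif1a, 0.081 for Sgip1, 0.083 for Id1, 0.122 for Secisbp2l and 0.133 for Ahcyl2. Pmp22 stood at 0.183, Sox10 at 0.665 and Ngfr at 1.717. The genes averaged stood farther from this mean than the genes named: Mbp at 0.284, Prx at 0.221 and Mag at 0.498. Mag lay higher and Mbp and Prx lower at the tenotomy site, so the mean is the profile of none of them. All share the same 7 libraries, and no test was made.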

How the data were processed

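RNA libraries were made from total RNA with a TruSeq kit, per the labels' protocols. The submitters' processing notes name kallisto and FastQC 0.11.4 and the build GRCh38, a human build, whereas the transcript IDs are mouse. Per the file headers, the authors deposited estimated counts (not whole, not normalized) and TPM (scaled by effective length) for 103639 transcripts in each library. IDs were matched without version to GENCODE M21 (GRCm38): 101510 matched, and counts were summed per gene and rounded, giving 44818 features, of which 42689 are genes.

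Low features were removed with filterByExpr (minimum count 10), libraries were scaled by TMM and groups compared with edgeR 4.0.16 quasi-likelihood tests in R 4.3.3, in 1 fit of 7 libraries with 3 group means. P-values were adjusted by Benjamini-Hochberg over 16028 genes, with a threshold of 0.05. SE is the log2 fold change divided by the square root of F. DESeq2 1.42.0, limma-voom (limma 3.58.1), other scalings and filters, fits of only the groups compared, the title-number series as covariate, length-scaled TPM and leaving out each library were alternatives. The scripts were tested on simulated data. The 8 genes and the lists were chosen with earlier results of these data known. Named were the 8 genes, Egr2, Erbb3 and Gap43, up to 2 rises and 2 falls past the threshold per Schwann, perineurial or axon list, and the 5 genes of closest profile. Marker lists of other cells are given as sums and counts, with single markers of some lists named, in part after their values were seen. Some genes of the lists enter the counts but are not reported here by name or drawn.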

Additional observations from a re-analysis of the deposited data

How the results depend on the processing

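Across alternatives, the direction of every one of the 8 genes in tenotomy against contralateral was kept. The count called higher (3) became 5 with total-count scaling and ranged from 0 to 4 when a library was left out. The count called lower (0) became 3 with only the groups compared, and ranged from 0 to 3 with a library left out. With the title-number covariate, tenotomy replicate 1 alone stood for its group against the contralateral libraries. Log2 fold changes were then -0.99 for Mbp, -0.74 for Prx and -0.58 for Pmp22. Of the 3 wider lists, 19 were called higher, 0 to 26 with a library left out. The 1 called lower became 0 with total-count scaling, 2 with DESeq2, 2 with no filter and 5 with only the groups compared. It ranged from 0 to 5 with a library left out. All genes called went from 2178 higher and 2465 lower to 3533 and 3852 with only the groups compared and 4445 and 1475 with total-count scaling. They were 1682 and 2061 with DESeq2, 1449 and 1733 with length-scaled TPM and 2365 and 2660 of 29100 with no filter. They were 0 with any 1 contralateral or tenotomy library left out.

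In tenotomy against uninjured, 0 of the 8 genes passed in either direction, but without an uninjured library up to 1 higher and 3 lower, and of the wider lists up to 11 higher and 9 lower. All genes called were 0, but 5 higher and 140 lower with DESeq2, 13 and 9 with no filter, 3 and 1 with the covariate, and 1937 and 2338 without uninjured replicate 1. The covariate, which leaves uninjured replicate 1 alone to stand for its group, reversed Mbp (0.48), Pmp22 (0.55) and Prx (0.46). Leaving out a library gave ranges of -1.40 to 0.47, -1.32 to 0.57 and -1.29 to 0.51, and of -0.037 to 2.26 for Ngfr.

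In contralateral against uninjured, the 0 called higher became 3 with the covariate and the 0 called lower became 1 with the covariate and 1 with no filter. Leaving out a library gave 0 to 3 higher and 0 to 2 lower. The wider lists gave 4 higher and 2 lower with the covariate, and 0 to 6 higher and 0 to 13 lower with a library left out. All genes called were 0, but 81 higher and 142 lower with DESeq2, 94 and 244 with no filter, 1344 and 1122 with the covariate, and 2857 and 2536 without uninjured replicate 2. Signs reversed for Pmp22 with limma-voom (0.22) and the covariate (1.13), for Prx with total-count scaling (-0.037), for S100b with the covariate (0.47), and for Mag with upper quartile scaling (-0.069), total-count scaling (-0.24), a minimum count of 30 (-0.015), only the groups compared (-0.007) and length-scaled TPM (-0.22). With a library left out, values ranged from -0.43 to 1.45 for Mbp, -0.74 to 1.16 for Pmp22, -0.51 to 1.30 for Prx and -0.22 to 0.30 for Mag. The cause of these changes was not tested. No paired analysis was possible because the labels give no replicate numbers that tie libraries across groups. Egfl8, Mag and Ngfr rest on as few as 4, 14 and 7 counts in a library, which limits their precision.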
